A study of Mus musculus with 6 samples.

Results

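The genes described here encode the machinery of hepatic fatty acid oxidation and other established targets of the nuclear receptor PPARalpha. They were chosen by name as 35 listed genes, and all 35 were found among the 55401 genes of the expression table. Liver RNA was sequenced in 6 libraries of C57BL/6 mice, with 2 libraries in each of 3 groups, to examine costunolide (COS), a plant sesquiterpene lactone, in acetaminophen (APAP, paracetamol) liver injury. The control group (replicates 1 and 3) carries only the label control as its treatment. The APAP group (replicates 1 and 3) was taken 6 h after 400 mg/kg APAP given into the peritoneum per the protocol text. The COS+APAP group (replicates 2 and 3) was pretreated with 20 mg/kg COS at 12 h and at 40 min ahead of an equal APAP dose. The labels name no genetic change in any group, and give neither sex nor age, nor a vehicle or a collection hour for the controls. APAP alone and COS+APAP share the overdose, and no group received COS without APAP.

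PPARalpha, encoded by *Ppara*, is a ligand-activated transcription factor that binds DNA as a heterodimer with the retinoid X receptor. In the fasted liver, fatty acids released from adipose tissue are its ligands and its targets are the enzymes that burn them. Long-chain fatty acids enter mitochondria through the carnitine shuttle, whose first enzyme, CPT1A, controls the flux, while peroxisomes shorten very long chains and the microsomal CYP4A enzymes oxidise the omega end. Acetyl-CoA from beta-oxidation feeds ketone body synthesis and the citric acid cycle. APAP overdose injures hepatocytes around the central vein, where the cytochromes that activate the drug are most abundant, and mitochondria are an early site of damage.

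Groups were taken from the titles, source names and treatment fields. The protocol text assigns COS to samples 5 and 6, which by accession are the libraries labelled APAP. If that text were right, these labels would be swapped. Differences between APAP and COS+APAP would then have the opposite sign. The results given for APAP against control and for COS+APAP against control would trade places. The COS+APAP titles carry the prefix 2 and the other titles the prefix 1, so a batch that goes with the prefix and COS cannot be told apart. No label says that the libraries are from separate animals, and p-values measure only the spread between these libraries. Totals were 71115112 to 76669799 estimated counts per library. In whole liver tissue, fewer cells of a type and less RNA per cell cannot be told apart.

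The classical PPARalpha response element is a pair of AGGTCA half-sites with 1 base between them. It was searched on both strands in the 250 bases before the annotated start of genes in RefSeq (GRCm38.p6). A promoter entry was found for 29 of the 35 genes, with 32 start sites. *Crat*, *Acaa2*, *Decr1*, *Cyp4a10*, *Cyp4a14* and *Vnn1* had no entry. The motif AGGTCANAGGTCA with at most 1 mismatch was found in 1 of these promoters, that of *Fabp1*, and in 159 of all 32851 promoters (0.484%). The single half-site AGGTCA, which the pair contains, was found in 7 of 32 promoters (21.9%), compared with 14% of all promoters. The *Fabp1* promoter is shown for its paired motif, and those of *Acadvl*, *Acot4* and *Cpt1a*, picked after the matches were known, show a single half-site within the same 100 bases of genes with unlike expression below. Each is the strand of the gene, 5′ to 3′, ending at the last base before the start. Capitals mark the matches, which read TGACCT where the motif lies on the opposite strand.
*Fabp1*, chr6:71199779-71199878, plus strand: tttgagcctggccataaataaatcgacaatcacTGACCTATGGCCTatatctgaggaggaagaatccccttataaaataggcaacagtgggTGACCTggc
*Acadvl*, chr11:70015429-70015528, minus strand: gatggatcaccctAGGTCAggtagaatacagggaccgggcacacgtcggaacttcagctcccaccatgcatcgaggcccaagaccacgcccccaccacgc
*Acot4*, chr12:84038279-84038378, plus strand: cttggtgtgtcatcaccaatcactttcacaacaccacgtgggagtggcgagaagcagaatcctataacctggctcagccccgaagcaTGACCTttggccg
*Cpt1a*, chr19:3323201-3323300, plus strand: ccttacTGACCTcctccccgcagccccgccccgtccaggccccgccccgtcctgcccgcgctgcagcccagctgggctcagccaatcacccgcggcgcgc
The *Fabp1* pair lies 67 to 55 bases before the start and a further half-site 9 to 4 bases before it. The half-site of *Acadvl* lies 87 to 82 bases before the start, that of *Acot4* 13 to 8 and that of *Cpt1a* 94 to 89. These starts are those of RefSeq and can differ from the deposited gene coordinates. The *Cpt1a* stretch lies inside the gene as deposited, and the *Fabp1* stretch reaches into it. A match of letters is not evidence of binding, which was not measured.

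Many of the oxidation genes rose with APAP. Of the 35 genes, 18 were higher in APAP than in control, 1 was lower (*Aldh3a2*) and 16 did not pass the test. Estimated counts were tested with edgeR (quasi-likelihood F), with Benjamini-Hochberg adjustment over all 10051 genes with a mean of at least 1 FPKM (fragments per kilobase of transcript scaled to depth), called at an adjusted p below 0.05. In the same comparison 45.4% of all tested genes were called, 23.3% as higher and 22.1% as lower, whereas 51.4% of the 35 were higher and 2.86% lower. The median log2 fold change of the 35 genes was 0.57, and that of all tested genes was -0.002. The genes called higher ranged from the carnitine shuttle (*Cpt1a*, *Crat*) through the mitochondrial spiral to the CYP4A hydroxylases and the pyruvate dehydrogenase kinase gene *Pdk4*. Scaling by library totals alone gave 15 higher and 4 lower, and shifted the median of all genes to -0.16.

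In COS+APAP compared with APAP, 9 of the 35 genes were lower, 0 were higher and 26 did not pass. The 9 were *Hadha*, *Ehhadh*, *Acaa1b*, *Acot1*, *Acot3*, *Acot4*, *Cyp4a10*, *Cyp4a14* and *Pdk4*, most of them genes of peroxisomal and omega-oxidation and of acyl-CoA hydrolysis. Among all tested genes 22.4% were called, 11.2% as higher and 11.1% as lower, whereas 25.7% of the 35 were lower. The median of the 35 genes was -0.44, beside 0.006 for all tested genes. At an unadjusted p below 0.05, edgeR gave 1 gene as higher (*Cpt2*) and 17 as lower, where 19.4% of all tested genes were higher and 18.8% lower. DESeq2 called 1 as higher, again *Cpt2*, and 15 as lower, where it called 17.4% and 18% of all tested genes. The number of genes lower fell to 2 without APAP replicate 1 and to 4 without COS+APAP replicate 3, fits in which the calls over all tested genes also fell, to 6.33% and 7.22%.

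Against control, COS+APAP was higher in genes of the carnitine shuttle and of mitochondrial and peroxisomal oxidation, and lower in a peroxisomal thiolase and a pair of thioesterases. *Cpt1a*, *Crat*, *Acadvl*, *Hadhb*, *Etfdh*, *Eci2*, *Pex11a* and *Pdk4* were higher and *Acaa1b*, *Acot3* and *Acot4* lower, so that 8 of the 35 genes were higher, 3 lower and 24 did not pass. Of all tested genes 21% were called, 10.7% as higher and 10.3% as lower, whereas 22.9% of the 35 were higher and 8.57% lower. The median of the 35 was 0.09 and that of all tested genes 0.018. The count of higher genes was 1 without control replicate 3, 4 without COS+APAP replicate 2 or 3, and 5 without control replicate 1 or APAP replicate 1. The calls over all tested genes fell in the same fits, to 7.28%, to 9.33% and 5.87%, and to 12% and 17.1%. Library totals alone gave 5 higher and 5 lower, with the median of all genes at -0.16.

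**Figure D1:**
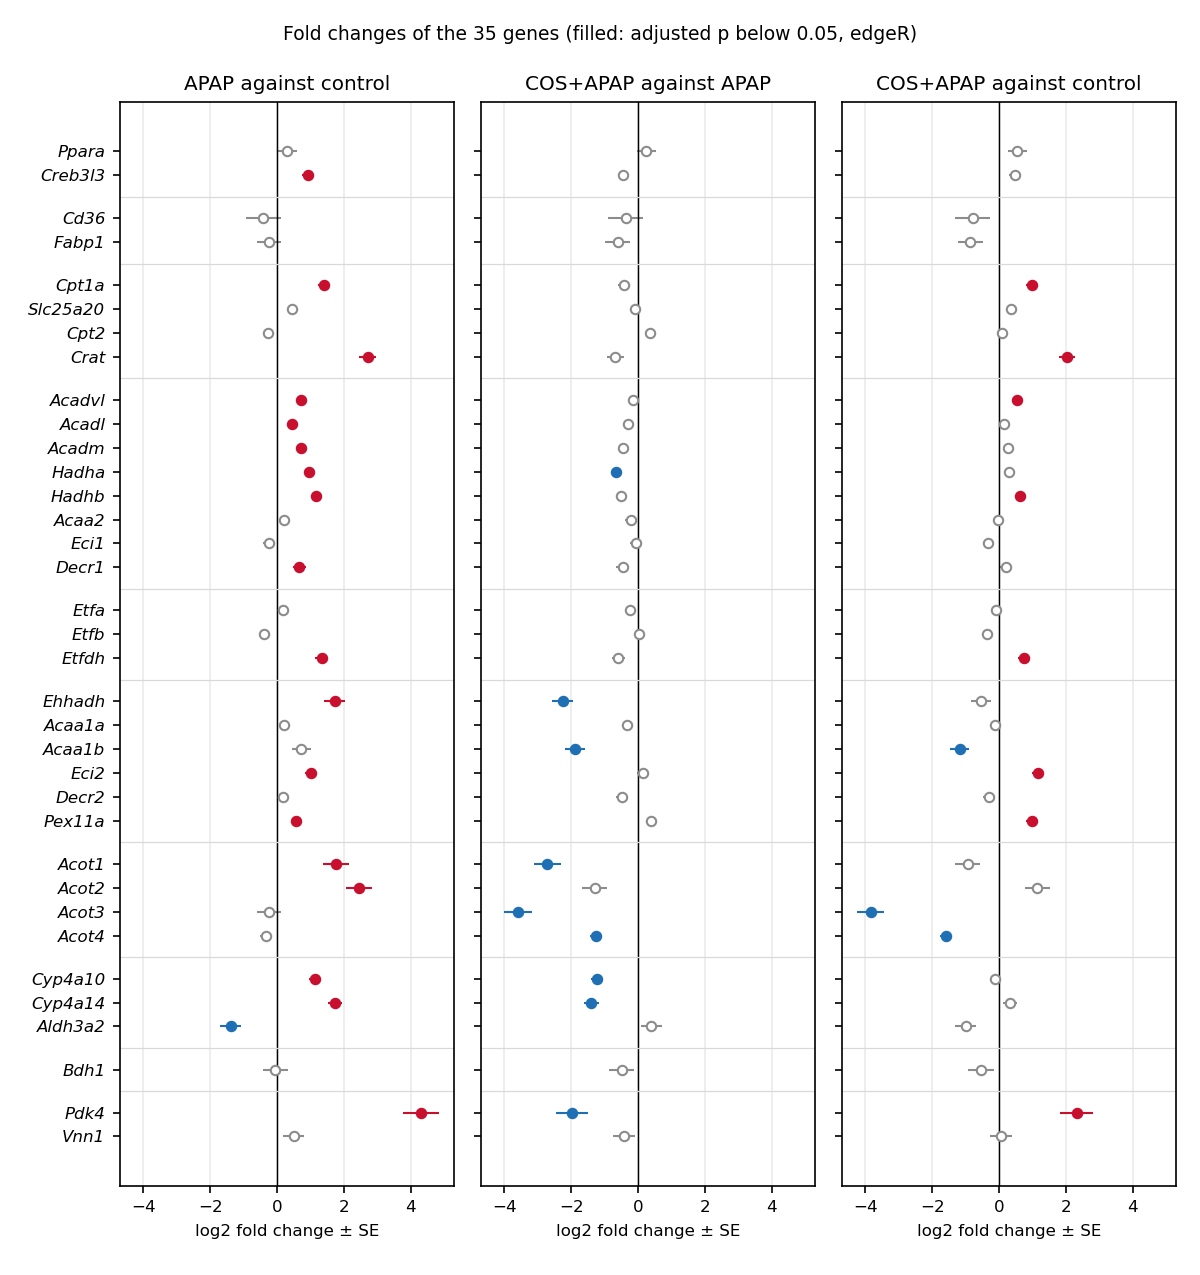
Log2 fold changes of the 35 genes (points) with their standard errors (bars) in the 3 comparisons, ordered by role. Filled points passed the test (adjusted p below 0.05, edgeR; red higher, blue lower), and the middle panel holds filled points on the lower side alone, 9 in number.

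*Ppara* (chr15:85734983-85802819, gene coordinates throughout as deposited) was weakly expressed and passed in no comparison. Values are given in the order of the replicate numbers of each group. FPKM values, and the overlaps read from them, do not carry the TMM scaling between libraries that the test used. Its factors were 1.071 and 1.086 in the controls and 0.9495 to 0.9922 in the other libraries. *Ppara* was at 4.54 and 4.55 FPKM in the controls, 3.90 and 6.31 under APAP alone and 7.21 and 4.72 under COS+APAP. Both COS+APAP libraries lay above both controls, and the APAP range took in both controls and the lower COS+APAP library. The largest log2 difference, COS+APAP minus control, was 0.55 ± 0.28 (SE; adjusted p = 0.217). *Creb3l3* encodes a membrane-bound hepatic transcription factor that acts with PPARalpha in the fasting response. It stood at 82.4 and 68.9 FPKM in the controls, 137 and 120.5 under APAP alone and 101 and 86.8 under COS+APAP, so that both APAP libraries lay above the other 4. *Creb3l3* was 1.88-fold higher in APAP than in control (log2 0.91 ± 0.16, adjusted p = 0.00786). The log2 difference between COS+APAP and APAP was -0.44 and did not pass (adjusted p = 0.103).

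Uptake and intracellular binding are represented by *Cd36*, the fatty acid translocase, and *Fabp1*, the abundant fatty acid binding protein of the hepatocyte cytosol. Neither passed in any comparison. *Cd36* was at 15.4 and 5.24 FPKM in the controls, 6.59 and 7.48 under APAP alone and 6.75 and 4.04 under COS+APAP, and the control range took in all the others but the second COS+APAP library. *Fabp1* was the most highly expressed of the 35 genes in each group, at 7325 and 8436 FPKM in the controls, 7395 and 4691 under APAP alone and 5097 and 2742 under COS+APAP. The APAP library with 7395 FPKM fell within the control range and the other, with 4691, below it, while both COS+APAP libraries lay below control. The log2 difference of *Fabp1* between COS+APAP and control was -0.85 ± 0.36 (adjusted p = 0.153). Its promoter was the one with the paired motif shown above.

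Of the 4 carnitine shuttle genes, *Cpt1a* and *Crat* rose with APAP, and *Slc25a20* and *Cpt2*, whose products sit in or on the inner membrane, did not pass. *Cpt1a* (chr19:3322334-3385733), which commits long-chain acyl groups to mitochondria, was at 25.5 and 21.5 FPKM in the controls, 51.1 and 62.9 under APAP alone and 46.8 and 36.3 under COS+APAP. Both APAP and both COS+APAP libraries were above both controls, and APAP was the highest group. *Cpt1a* was 2.66-fold higher in APAP than in control (log2 1.41 ± 0.18, adjusted p = 0.00337) and 1.97-fold higher in COS+APAP than in control (log2 0.98 ± 0.18, adjusted p = 0.0196). The second of these calls was lost without control replicate 3 or COS+APAP replicate 2. *Crat*, carnitine acetyltransferase, buffers acetyl-CoA by exporting acetyl groups as acetylcarnitine. It was at 3.07 and 2.65 FPKM in the controls, 17.1 and 17.0 under APAP alone and 8.04 and 13.0 under COS+APAP, with no overlap between any pair of groups. The fold over control was 6.54 in APAP (log2 2.71 ± 0.26, adjusted p = 0.00176) and 4.09 in COS+APAP (log2 2.03 ± 0.25, adjusted p = 0.00812), and both calls held without any one library. The difference of *Crat* between the APAP groups was -0.68 ± 0.24 on the log2 scale (adjusted p = 0.102). *Slc25a20*, the carnitine-acylcarnitine translocase, ranged from 22.5 to 30.6 FPKM over all libraries, and its log2 difference of 0.45 between APAP and control did not pass (adjusted p = 0.073). DESeq2 and a fit of only those groups each called *Slc25a20* higher in APAP. *Cpt2*, which returns the acyl group to CoA inside the mitochondrion, was lowest in the APAP libraries, at 52.9 and 54.9 FPKM, against 62.6 to 73.8 in the other 4. Its log2 difference of 0.35 ± 0.12 between COS+APAP and APAP did not pass (adjusted p = 0.0804).

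Of the 8 mitochondrial beta-oxidation enzymes, 6 were higher in APAP than in control, by factors of 1.37 (*Acadl*) to 2.22 (*Hadhb*), and 1 was lower in COS+APAP than in APAP. *Acadvl*, *Acadl* and *Acadm* encode the acyl-CoA dehydrogenases of very long, long and medium chains, which perform the first step of the spiral. *Acadvl* was at 122 and 108 FPKM in the controls, 171 and 169 under APAP alone and 159 and 144 under COS+APAP, with both controls below the other 4 libraries. It was 1.63-fold higher in APAP than in control (log2 0.70 ± 0.12, adjusted p = 0.00746) and 1.47-fold higher in COS+APAP than in control (adjusted p = 0.0311). The COS+APAP call on *Acadvl* was lost in each fit that left out 1 library. Its gene overlaps *Dvl2* on the other strand over 2119 bases, and *Dvl2* had a mean of 1.21 FPKM. *Acadl* rose by 0.45 on the log2 scale with APAP (adjusted p = 0.0305) and *Acadm* by 0.71 (adjusted p = 0.0134), and neither differed from APAP or control beyond the threshold in COS+APAP. The *Acadl* call was lost without any one of the 4 control and APAP libraries, and the *Acadm* call without control replicate 3 or APAP replicate 1.

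*Hadha* and *Hadhb* encode the subunits of the mitochondrial trifunctional protein, which carries out the remaining steps on long chains, and the genes are neighbours on chromosome 5. *Hadha* (chr5:30118304-30155162) was at 30.1 and 26.5 FPKM in the controls, 50.5 and 48.9 under APAP alone and 33.9 and 28.1 under COS+APAP. The COS+APAP and control libraries overlapped, and the APAP libraries stood apart above them. *Hadha* was 1.93-fold higher in APAP than in control (log2 0.95 ± 0.14, adjusted p = 0.00493) and 1.58-fold lower in COS+APAP than in APAP (log2 -0.66 ± 0.14, adjusted p = 0.0273). The second call was lost without any one of the 4 APAP and COS+APAP libraries. *Hadhb* (chr5:30155248-30184593) was at 11.7 and 10.4 FPKM in the controls, 23.7 and 20.98 under APAP alone and 16.9 and 14.2 under COS+APAP, an order in which no pair of groups overlapped. It was 2.22-fold higher in APAP than in control (log2 1.15 ± 0.15, adjusted p = 0.00342) and 1.56-fold higher in COS+APAP (log2 0.64 ± 0.15, adjusted p = 0.0348). The difference of *Hadhb* between COS+APAP and APAP, -0.51, did not pass (adjusted p = 0.0602), and the COS+APAP call against control was lost without any one library other than APAP replicate 3. Of the 100-base stretches of *Hadhb*, 14.8% occur in *Gm13910* or *Gm9108*. Although the products form 1 complex, the FPKM ratio of *Hadhb* to *Hadha* was 0.389 and 0.393 in the controls, 0.469 and 0.429 under APAP alone and 0.497 and 0.505 under COS+APAP.

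Of the other mitochondrial enzymes, *Decr1*, the dienoyl-CoA reductase needed for polyunsaturated chains, was 1.59-fold higher in APAP than in control (adjusted p = 0.037). This call was lost without any one of the 4 control and APAP libraries. *Acaa2*, the mitochondrial thiolase, lay between 404 and 550 FPKM in all 6 libraries and passed nowhere. *Eci1*, which moves double bonds into position for the spiral, was at 80.6 and 75.4 FPKM in the controls, 62.7 and 56.5 under APAP alone and 63.9 and 48.6 under COS+APAP. Its control values lay above the other 4, and no comparison passed.

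Electrons from the acyl-CoA dehydrogenases pass to the electron transfer flavoprotein (*Etfa*, *Etfb*) and then through its dehydrogenase (*Etfdh*) to ubiquinone. *Etfdh* (chr3:79603788-79629500) was at 17.8 and 13.6 FPKM in the controls, 37.5 and 34.1 under APAP alone and 26.0 and 21.1 under COS+APAP, with no overlap between the groups. It was 2.51-fold higher in APAP than in control (log2 1.33 ± 0.19, adjusted p = 0.00438) and 1.67-fold higher in COS+APAP (log2 0.74 ± 0.19, adjusted p = 0.0441), the second call being lost without control replicate 3 or either COS+APAP library, and without either APAP library. The flavoprotein subunits did not pass. *Etfa* ranged from 89.3 to 120 FPKM, and *Etfb* was at 287 and 295 FPKM in the controls, 210.2 and 196 under APAP alone and 223 and 183 under COS+APAP, with both controls above the rest. Library totals alone, DESeq2, limma on log2 FPKM and a fit of only those groups each called *Etfb* lower in APAP than in control. *Etfb* shares 35.8% of its 100-base stretches with the transcript of *Gm45233*, and how far this affects its value was not tested. Its gene overlaps *Etfbl* on the same strand over 13673 bases, and *Etfbl* had a mean of 0.58 FPKM.

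**Figure D2:**
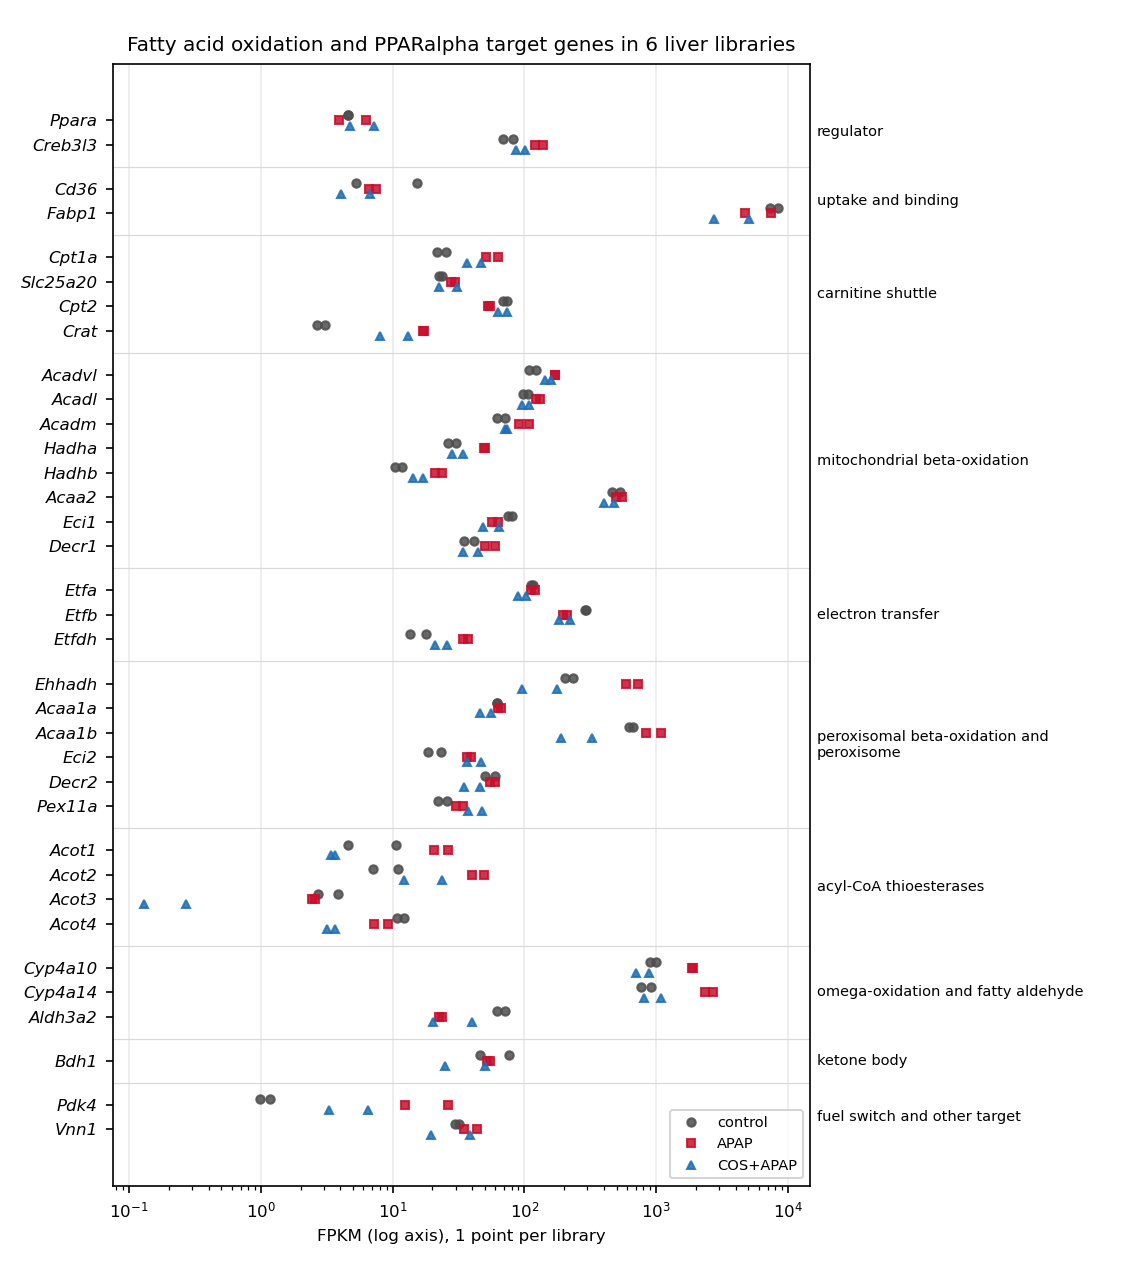
FPKM of each of the 35 genes in each of the 6 libraries, on a log axis, with 1 point per library and the genes ordered by role. The levels run from *Acot3* in COS+APAP (0.13 and 0.27 FPKM) to *Fabp1* (2742 to 8436 FPKM).

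Among the 6 peroxisomal genes, *Ehhadh*, *Eci2* and *Pex11a* were higher in APAP than in control, and *Ehhadh* and *Acaa1b* were lower in COS+APAP than in APAP. *Ehhadh* (chr16:21761287-21787807), the bifunctional enzyme of the classical peroxisomal spiral, was at 234 and 203 FPKM in the controls, 722 and 587 under APAP alone and 176 and 95.3 under COS+APAP. Both APAP libraries exceeded all others, and both COS+APAP libraries lay below both controls. *Ehhadh* was 3.3-fold higher in APAP than in control (log2 1.72 ± 0.31, adjusted p = 0.00876) and 4.78-fold lower in COS+APAP than in APAP (log2 -2.26 ± 0.32, adjusted p = 0.0113). The difference of -0.53 from control in COS+APAP did not pass (adjusted p = 0.264). The APAP call was lost without control replicate 3, and the COS+APAP call without APAP replicate 1.

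*Acaa1a* and *Acaa1b* encode the closely related peroxisomal thiolases that end each turn of the spiral. *Acaa1b* (chr9:119148023-119157093) was at 668 and 620.4 FPKM in the controls, 1094 and 837 under APAP alone and 325 and 188 under COS+APAP, again with APAP highest and COS+APAP lowest and no overlap. It was 3.73-fold lower in COS+APAP than in APAP (log2 -1.90 ± 0.30, adjusted p = 0.0145) and 2.26-fold lower than in control (log2 -1.18 ± 0.29, adjusted p = 0.043). The first of these was lost without APAP replicate 1, and the second without either control library, either APAP library or COS+APAP replicate 3. The log2 difference of 0.72 between APAP and control did not pass (adjusted p = 0.0921). DESeq2 and a fit of only those groups each called *Acaa1b* higher in APAP. *Acaa1a* (chr9:119339676-119350298), on the same chromosome, was at 61.8 and 62.0 FPKM in the controls, 63.3 and 66.0 under APAP alone and 56.0 and 46.1 under COS+APAP and passed nowhere. The FPKM ratio of *Acaa1b* to *Acaa1a* was 10.8 and 10 in the controls, 17.3 and 12.7 under APAP alone and 5.81 and 4.07 under COS+APAP. The genes share sequence, 19.3% of the 100-base stretches of *Acaa1b* and 7.21% of those of *Acaa1a*.

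*Eci2* and *Pex11a* were higher than control in both APAP groups. *Eci2*, a peroxisomal enoyl-CoA isomerase, was at 23.1 and 18.5 FPKM in the controls, 36.4 and 39.4 under APAP alone and 46.7 and 36.5 under COS+APAP, with both controls below the other 4 libraries. It was 2-fold higher in APAP than in control (log2 1.00 ± 0.17, adjusted p = 0.00757) and 2.22-fold higher in COS+APAP than in control (log2 1.15 ± 0.17, adjusted p = 0.0121). The COS+APAP call was lost without control replicate 3. *Pex11a* encodes a membrane protein through which peroxisomes elongate and multiply. It was at 26.0 and 22.0 FPKM in the controls, 34.4 and 30.4 under APAP alone and 47.3 and 37.4 under COS+APAP, so that the groups lay in the order control, APAP, COS+APAP without overlap. *Pex11a* was 1.49-fold higher in APAP (log2 0.57 ± 0.17, adjusted p = 0.041) and 1.96-fold higher in COS+APAP (log2 0.97 ± 0.17, adjusted p = 0.0177) than in control. The first call was lost without any one of the control and APAP libraries, and the second without control replicate 3 or COS+APAP replicate 2. Its gene overlaps the antisense gene *Gm44706* over 1339 bases, and the sources used here do not give whether counting used strand. *Decr2*, the peroxisomal dienoyl-CoA reductase, was at 60.1 and 50.6 FPKM in the controls, 54.5 and 59.8 under APAP alone and 45.6 and 34.8 under COS+APAP, and passed in no comparison.

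The acyl-CoA thioesterases of the *Acot* cluster on chromosome 12 release free fatty acids from their CoA esters, in the cytosol (*Acot1*), mitochondria (*Acot2*) and peroxisomes (*Acot3*, *Acot4*). *Acot1* (chr12:84009490-84018371) was at 4.60 and 10.6 FPKM in the controls, 26.3 and 20.6 under APAP alone and 3.65 and 3.42 under COS+APAP. The APAP libraries were the highest and the COS+APAP libraries the lowest. It was 3.41-fold higher in APAP than in control (log2 1.77 ± 0.39, adjusted p = 0.016) and 6.55-fold lower in COS+APAP than in APAP (log2 -2.71 ± 0.41, adjusted p = 0.0128). The APAP call was lost without APAP replicate 1, and the other without that library or either COS+APAP library. Without control replicate 3 the rise of *Acot1* was 2.48 on the log2 scale. *Acot2* (chr12:83987861-83993873) was at 7.09 and 11.01 FPKM in the controls, 49.6 and 39.8 under APAP alone and 12.2 and 23.6 under COS+APAP, with every COS+APAP value between the control and the APAP values. It was 5.45-fold higher in APAP than in control (log2 2.45 ± 0.39, adjusted p = 0.00595), a call that held without any one library. Neither the log2 difference of -1.30 from APAP (adjusted p = 0.0602) nor that of 1.15 from control (adjusted p = 0.0847) passed in COS+APAP. DESeq2 called both.

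The peroxisomal pair passed no test with APAP and was lower in COS+APAP than in either other group. *Acot3* (chr12:84052144-84060402) was at 2.70 and 3.84 FPKM in the controls, 2.58 and 2.43 under APAP alone and 0.13 and 0.27 under COS+APAP, and the COS+APAP values rested on 35 and 78 estimated counts, against 703 to 1065 in the other 4 libraries. *Acot3* was 12.1-fold lower in COS+APAP than in APAP (log2 -3.59 ± 0.41, adjusted p = 0.00768) and 14.3-fold lower than in control (log2 -3.84 ± 0.41, adjusted p = 0.00553). Both calls held without any one library, and were the largest falls among the 35 genes in these comparisons. Without COS+APAP replicate 3 the log2 values of *Acot3* were -4.24 and -4.48. *Acot4* (chr12:84038379-84048601) was at 10.7 and 12.2 FPKM in the controls, 9.14 and 7.17 under APAP alone and 3.64 and 3.15 under COS+APAP, with no overlap between the groups. It was 2.38-fold lower in COS+APAP than in APAP (log2 -1.25 ± 0.17, adjusted p = 0.0111), a call lost without COS+APAP replicate 3. Against control it was 3.03-fold lower (log2 -1.60 ± 0.17, adjusted p = 0.00598), which held without any one library. The FPKM ratio of *Acot1* to *Acot2* was 0.649 and 0.961 in the controls, 0.529 and 0.519 under APAP alone and 0.299 and 0.145 under COS+APAP. Members of the cluster share 100-base stretches with each other or, for *Acot3*, also with *Gm49366*. The shares were 17.1% for *Acot2*, 13.8% for *Acot3* (9.53% with *Gm49366*), 12.4% for *Acot1* and 0.336% for *Acot4*. *Gm49366*, listed at a mean of 0 FPKM, overlaps *Acot3* and *Acot4* on the same strand. The antisense gene *4732463B04Rik* (mean 0.57 FPKM) also overlaps both. How far these affect the values was not tested. The *Acot4* promoter, with a half-site next to its start, is shown above.

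**Figure D3:**
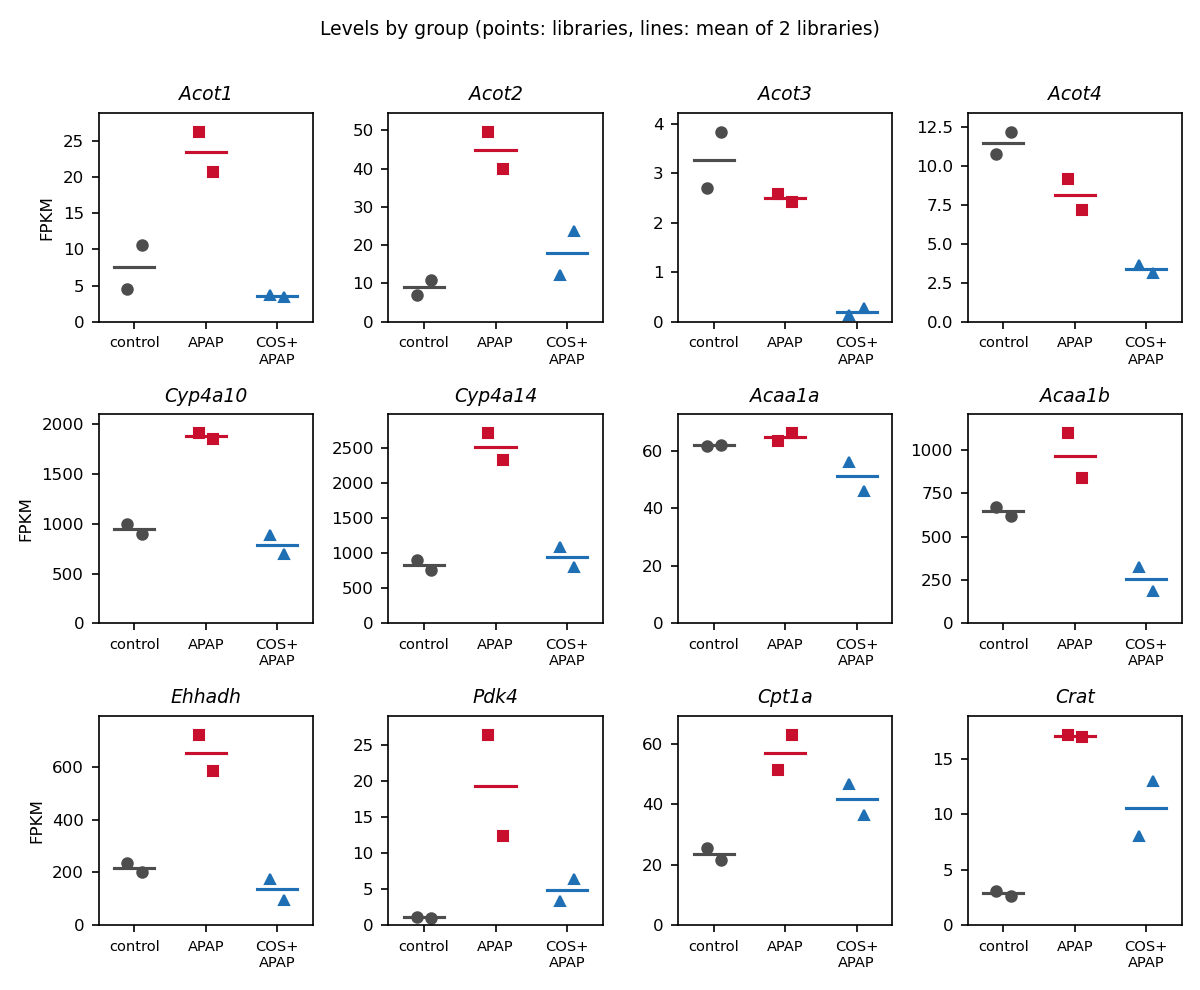
FPKM of 12 of the genes in each library (points) and the mean of the 2 libraries of each group (lines), on linear axes that start at 0. *Acot1*, *Cyp4a10*, *Cyp4a14* and *Ehhadh* peak in APAP, whereas *Acot3* and *Acot4* are lowest in COS+APAP and do not peak in APAP.

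Omega-oxidation genes gave the most abundant transcripts after *Fabp1*. *Cyp4a10* and *Cyp4a14* encode the fatty acid omega-hydroxylases that serve as standard readouts of PPARalpha activity in rodent liver. *Cyp4a10* (chr4:115518264-115533649) was at 999.8 and 901 FPKM in the controls, 1911 and 1855 under APAP alone and 886 and 696 under COS+APAP. In FPKM, APAP values were apart from the rest, and those of COS+APAP lay below both controls. It was 2.18-fold higher in APAP than in control (log2 1.12 ± 0.17, adjusted p = 0.00493) and 2.35-fold lower in COS+APAP than in APAP (log2 -1.23 ± 0.17, adjusted p = 0.0108). *Cyp4a14* (chr4:115486200-115496142) was at 909 and 767 FPKM in the controls, 2716 and 2337 under APAP alone and 1087 and 813 under COS+APAP, and the COS+APAP and control values overlapped. It was 3.32-fold higher in APAP than in control (log2 1.73 ± 0.21, adjusted p = 0.00309) and 2.63-fold lower in COS+APAP than in APAP (log2 -1.40 ± 0.21, adjusted p = 0.0132). Both APAP calls held without any one library, and both COS+APAP calls were lost without APAP replicate 1 or COS+APAP replicate 3. The log2 differences between COS+APAP and control were -0.11 ± 0.17 for *Cyp4a10* (adjusted p = 0.671) and 0.34 ± 0.21 for *Cyp4a14* (adjusted p = 0.298). Of the 100-base stretches of *Cyp4a10*, 12.2% occur in *Cyp4a32* or *Cyp4a31*.

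*Aldh3a2*, which oxidises the fatty aldehydes made in omega-oxidation, went the other way. It was at 71.4 and 62.0 FPKM in the controls, 22.4 and 23.9 under APAP alone and 40.0 and 20.1 under COS+APAP, with both controls above the other 4 libraries. *Aldh3a2* was 2.63-fold lower in APAP than in control (log2 -1.39 ± 0.32, adjusted p = 0.0174), which did not pass in fits that left out control replicate 1 or either APAP library. The difference of -0.998 between COS+APAP and control did not pass (adjusted p = 0.0765). Library totals alone, DESeq2 and limma on log2(FPKM + 1) each called *Aldh3a2* lower in COS+APAP than in control.

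*Bdh1*, the mitochondrial enzyme that converts acetoacetate to beta-hydroxybutyrate, passed nowhere, and its controls, at 75.8 and 46.1 FPKM, differed from each other more than the APAP libraries, at 54.9 and 52.1, while COS+APAP had 50.4 and 25.1. *Pdk4* (chr6:5483351-5496309) encodes the kinase that switches pyruvate dehydrogenase off and so spares glucose. It was at 1.18 and 0.99 FPKM in the controls, 26.4 and 12.3 under APAP alone and 3.31 and 6.45 under COS+APAP, with no overlap between the groups. *Pdk4* had the largest rise of the 35 genes, 19.7-fold in APAP over control (log2 4.30 ± 0.54, adjusted p = 0.00313), and this call held without any one library, with a log2 value of 3.60 when APAP replicate 1 was left out. It was 3.94-fold lower in COS+APAP than in APAP (log2 -1.98 ± 0.48, adjusted p = 0.0389) and 5.01-fold higher than in control (log2 2.33 ± 0.49, adjusted p = 0.0286). The fall against APAP was lost without any one library other than APAP replicate 3 (-1.29 without APAP replicate 1), and the rise over control without either control library or COS+APAP replicate 3. *Vnn1*, a pantetheinase that is induced by PPARalpha ligands in liver, was at 31.7 and 29.7 FPKM in the controls, 43.6 and 34.6 under APAP alone and 38.5 and 19.4 under COS+APAP, and passed in no comparison.

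The 35 genes together made up 2.31% and 2.27% of all FPKM in the controls, 3.31% and 2.61% under APAP alone and 1.84% and 1.22% under COS+APAP, with *Fabp1* as the largest part. In COS+APAP, 31 of 35 genes were lower in replicate 3 than in replicate 2, with a median log2 difference of -0.28 where all tested genes had 0.009. In control and in APAP 27 of 35 were lower in replicate 3 than in replicate 1, with medians of -0.19 and -0.17.

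PPARalpha's own partners and the rest of the pathway were then taken from 10 lists that hold none of the 35 genes. Most genes named from each list are at the ends of those that passed, and each count stands against the shares of all tested genes given above. Of 16 tested partners and coregulators, 6 were higher and 3 lower in APAP than in control, with a median log2 fold change of 0.32. These were 37.5% and 18.8%, beside 23.3% and 22.1% of all tested genes. The coactivator gene *Ppargc1b* (2.07, adjusted p = 0.00253) and the lipin *Lpin2* (1.75, adjusted p = 0.00556) rose most, and *Pparg*, the adipogenic paralog of *Ppara* (-2.30, adjusted p = 0.00213), and the fasting-linked factor *Klf15* (-1.73, adjusted p = 0.00497) fell most. In COS+APAP compared with APAP, 5 were higher and 2 lower (31.2% and 12.5%, beside 11.2% and 11.1% of all tested genes). *Pparg* (2.94, adjusted p = 0.00555) and *Ppargc1a* (1.68, adjusted p = 0.0105), the coactivator that drives hepatic fasting metabolism, were higher, and the deacetylase gene *Sirt1* (-1.21, adjusted p = 0.0296) and *Ppargc1b* (-0.92, adjusted p = 0.0395) were lower. *Ppargc1a* stood at 0.78 and 0.74 FPKM in the controls, 0.65 and 0.77 under APAP alone and 2.64 and 1.84 under COS+APAP. Against control, 3 were higher in COS+APAP and 0 lower, among them *Lpin1*, a coactivator of PPARalpha (4.18, adjusted p = 0.0413), and *Ppargc1a* (1.71, adjusted p = 0.00877). The *Ppargc1a* calls were lost without APAP replicate 1 (against APAP) or control replicate 3 (against control), that of *Lpin1* without any one library other than control replicate 1, which took its log2 value to 6.14, and those of *Sirt1* and *Ppargc1b* against APAP without either APAP library or COS+APAP replicate 2, among others.

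Upstream of oxidation, fatty acid uptake, binding and activation genes were called in both directions, 6 higher and 4 lower of 16 tested in APAP against control. *Fabp4*, a binding protein typical of adipocytes and macrophages (1.63, adjusted p = 0.00375), and the transporter *Slc27a1* (1.09, adjusted p = 0.00407) rose, and the acetate-activating *Acss2* (-2.09, adjusted p = 0.000878) and the medium-chain ligase *Acsm5* (-1.56, adjusted p = 0.00123) fell. In COS+APAP against APAP 3 were higher, among them *Fabp5* (2.72, adjusted p = 0.00686) and *Acsm5* (0.93, adjusted p = 0.00842), and 3 lower, among them the long-chain ligases *Acsl5* (-1.24, adjusted p = 0.0148) and *Acsl3* (-0.97, adjusted p = 0.0422). Against control 4 were higher in COS+APAP and 3 lower, with *Fabp5* (2.30, adjusted p = 0.00756), *Fabp4* (1.53, adjusted p = 0.0108), *Acsl3* (-2.39, adjusted p = 0.00548) and *Acss2* (-1.83, adjusted p = 0.00227) at the ends. The falls of *Acsl5* and *Acsl3* against APAP were lost without either COS+APAP library, among others. In APAP against control, 37.5% of this list were higher and 25% lower, the latter near the 22.1% of all tested genes. The shares were 18.8% each in COS+APAP against APAP, and 25% and 18.8% in COS+APAP against control.

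Of 17 other mitochondrial and carnitine genes, 5 were higher and 0 lower in APAP than in control. The 29.4% higher was near the 23.3% of all tested genes, of which 22.1% were lower. The 5 included the carriers *Slc25a29* (2.11, adjusted p = 0.00378) and *Slc22a5*, which takes carnitine into the cell (1.64, adjusted p = 0.00427). In COS+APAP 0 of the 17 were higher than in APAP and 3 lower (17.6%, beside 11.1% of all tested genes). Among the 3 were the acyl-CoA dehydrogenase gene *Acad11* (-1.48, adjusted p = 0.0155) and *Slc25a29* (-1.06, adjusted p = 0.0456). Against control 2 were higher, *Slc22a5* (1.17, adjusted p = 0.0228) and *Crot*, the peroxisomal carnitine octanoyltransferase (0.63, adjusted p = 0.0328), and 1 lower, *Hadh* (-0.50, adjusted p = 0.0402). The 11.8% higher was near the 10.7% of all tested genes, and the 5.88% lower stood beside 10.3%. All 5 of these COS+APAP calls were lost without COS+APAP replicate 2, among others.

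Of 35 further peroxisomal genes tested, 7 were higher (20%) and 10 lower (28.6%) in APAP than in control, near the 23.3% and 22.1% of all tested genes. In COS+APAP 5 were higher and 5 lower than in APAP (14.3% each), and 4 and 4 than in control (11.4% each), again near the shares of all tested genes. *Acot5*, another thioesterase of the chromosome 12 cluster, is listed at 0 in both controls and at 7.83 and 1.96 FPKM in APAP. It was at least 110-fold higher against a floor of 3 fragments over the control group (edgeR adjusted p = 0.0156). This call was lost without control replicate 3. *Acot5* met the filter of a mean of 1 FPKM only through the APAP libraries, so its p-value is not independent of that selection. *Acot12*, a cytosolic acetyl-CoA hydrolase, was higher in APAP (1.32, adjusted p = 0.00155) and lower in COS+APAP than in APAP (-0.93, adjusted p = 0.00891). Of the peroxisomal genes that passed, the CoA diphosphatase gene *Nudt7* had the largest fall with APAP (-2.38, adjusted p = 0.0024), followed by the peroxisome assembly gene *Pex10* (-1.53, adjusted p = 0.00253). In COS+APAP, the transporter gene *Abcd4* (2.17, adjusted p = 0.00589) and *Pex10* (1.49, adjusted p = 0.00795) were highest over APAP, and the alpha-oxidation lyase gene *Hacl1* (-1.25, adjusted p = 0.033) was lowest among those that passed. Against control *Abcd4* was also higher (1.15, adjusted p = 0.0169), and the transporter of very long chains *Abcd2* (-2.38, adjusted p = 0.0155) and *Nudt7* (-1.60, adjusted p = 0.0139) were lower. The calls on *Hacl1*, *Abcd2*, *Nudt7* and *Abcd4* in the last 2 comparisons, other than that of *Abcd4* over APAP, were lost without COS+APAP replicate 3, among others.

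Among genes of ketone body production, the monocarboxylate transporter *Slc16a6*, which exports ketone bodies from hepatocytes, was at 1.55 and 2.08 FPKM in the controls, 13.9 and 14.0 under APAP alone and 1.3 and 2.08 under COS+APAP. It was higher in APAP than in control (log2 3.08, adjusted p = 0.00163) and lower in COS+APAP than in APAP (-3.02, adjusted p = 0.00589). Its relative *Slc16a1* was also higher in APAP than in control (1.67, adjusted p = 0.00177), lower in COS+APAP than in APAP (-0.62, adjusted p = 0.0429) and above control there (1.05, adjusted p = 0.0119), the COS+APAP calls being lost without COS+APAP replicate 3, among others. *Bdh2* (-1.23, adjusted p = 0.0291) and *Slc16a7* (-0.69, adjusted p = 0.00734) were lower in APAP than in control, and so they were in COS+APAP (-1.48, adjusted p = 0.0327, and -0.66, adjusted p = 0.018). Of these 4 calls, that of *Slc16a7* in APAP alone held without any one library. Of the 7 tested genes of this list, 3 were higher and 2 lower in APAP than in control, 0 higher and 2 lower in COS+APAP than in APAP, and 1 and 2 against control. In the list of 13 microsomal genes tested, the CYP4A paralogs *Cyp4a32* (2.07, adjusted p = 0.00189) and *Cyp4a31* (1.501, adjusted p = 0.00165) rose with APAP, and *Cyp4a31* (-1.36, adjusted p = 0.00635) and *Cyp4a32* (-0.76, adjusted p = 0.0465) were lower in COS+APAP than in APAP, the call on *Cyp4a32* being lost without any one of the APAP and COS+APAP libraries. *Cyp4f17* rose beside them (2.08, adjusted p = 0.011, and 2.86 without control replicate 1), and the alcohol dehydrogenase gene *Adh4* (-1.69, adjusted p = 0.00271) and *Cyp4f14* (-0.91, adjusted p = 0.00725) fell. *Cyp4a32* was above control in COS+APAP (1.31, adjusted p = 0.0123), and *Cyp4f14* (-1.498, adjusted p = 0.00526) and *Adh4* (-1.30, adjusted p = 0.0121) below it, those of *Cyp4a32* and *Adh4* being lost without control replicate 3. The whole list had 3 higher and 3 lower in APAP (23.1% each), near the 23.3% and 22.1% of all tested genes. It had 0 and 3 in COS+APAP against APAP. Against control it had 1 and 2 (7.69% and 15.4%), beside 10.7% and 10.3% of all tested genes.

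Other PPARalpha targets included genes of lipid droplets, glycogen metabolism and secreted factors. Of 33 tested, 16 were higher and 5 lower in APAP than in control (median log2 0.60), 6 higher and 9 lower in COS+APAP than in APAP (median -0.32), and 10 higher and 5 lower in COS+APAP than in control (median 0.19). The largest rises of this list with APAP were those of *Cidec* and *Hilpda*, both of lipid droplets. *Cidec*, which fuses droplets, was at 0.89 and 1.28 FPKM in the controls, 121 and 126 under APAP alone and 44.0 and 18.6 under COS+APAP. *Plin2*, the coat protein of hepatic droplets, was at 45.6 and 43.2 FPKM in the controls, 682 and 574 under APAP alone and 134 and 119 under COS+APAP. The log2 fold changes with APAP were 6.96 for *Cidec* (adjusted p = 0.00126), 3.96 for *Plin2* (adjusted p = 0.000846) and 6.72 for the lipase inhibitor *Hilpda* (adjusted p = 0.00253). Each was lower in COS+APAP than in APAP, by log2 values of -1.96 (adjusted p = 0.0266), -2.29 (adjusted p = 0.00371) and -4.71 (adjusted p = 0.0122). The *Hilpda* call was lost without either COS+APAP library. The *Cidec* call against APAP was not examined with libraries left out. Without APAP replicate 1 the *Hilpda* values were 5.39 over control and -3.39 against APAP, and without APAP replicate 3 they were 7.40 and -5.38. *Plin4*, another droplet coat gene, was highest in COS+APAP, at 28.9 and 27.1 FPKM against 4.08 and 5.97 in APAP (2.501, adjusted p = 0.00589). The glycogen-targeting subunit gene *Ppp1r3b* (-3.39, adjusted p = 0.000878) and *Pdk2*, a paralog of *Pdk4* (-1.49, adjusted p = 0.0015), had the largest falls with APAP. *Ppp1r3c*, another glycogen-targeting subunit gene, was higher in COS+APAP than in APAP (2.09, adjusted p = 0.0195), a call that was lost without either COS+APAP library and had a log2 value of 2.76 without APAP replicate 3. Against control, *Cidec* (5.00, adjusted p = 0.00452) and *Plin4* (4.72, adjusted p = 0.00207) were highest and *Ppp1r3b* (-1.89, adjusted p = 0.00372) and the thioesterase gene *Acot13* (-1.37, adjusted p = 0.00664) lowest in COS+APAP, among those that passed. Without COS+APAP replicate 2 the *Cidec* value was 4.26.

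Secreted targets were represented by *Fgf21* and *Angptl4*. *Fgf21*, the fasting hormone of the liver, was at 0.65 and 0.93 FPKM in the controls, 50.3 and 23.0 under APAP alone and 7.66 and 8.34 under COS+APAP. It was higher in APAP than in control (5.68, adjusted p = 0.00152), lower in COS+APAP than in APAP (-2.18, adjusted p = 0.0209) and above control (3.50, adjusted p = 0.00867). The fall of *Fgf21* against APAP was lost without either COS+APAP library, and without APAP replicate 1 its log2 values were 4.95 over control and -1.47 against APAP. *Angptl4*, which inhibits lipoprotein lipase, was at 24.3 and 16.5 FPKM in the controls, 98.8 and 84.2 under APAP alone and 78.9 and 73.0 under COS+APAP. It was higher than control in both (2.31, adjusted p = 0.00187, and 2.05, adjusted p = 0.00599), and the difference of -0.25 between the APAP groups did not pass (adjusted p = 0.432).

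**Figure D4:**
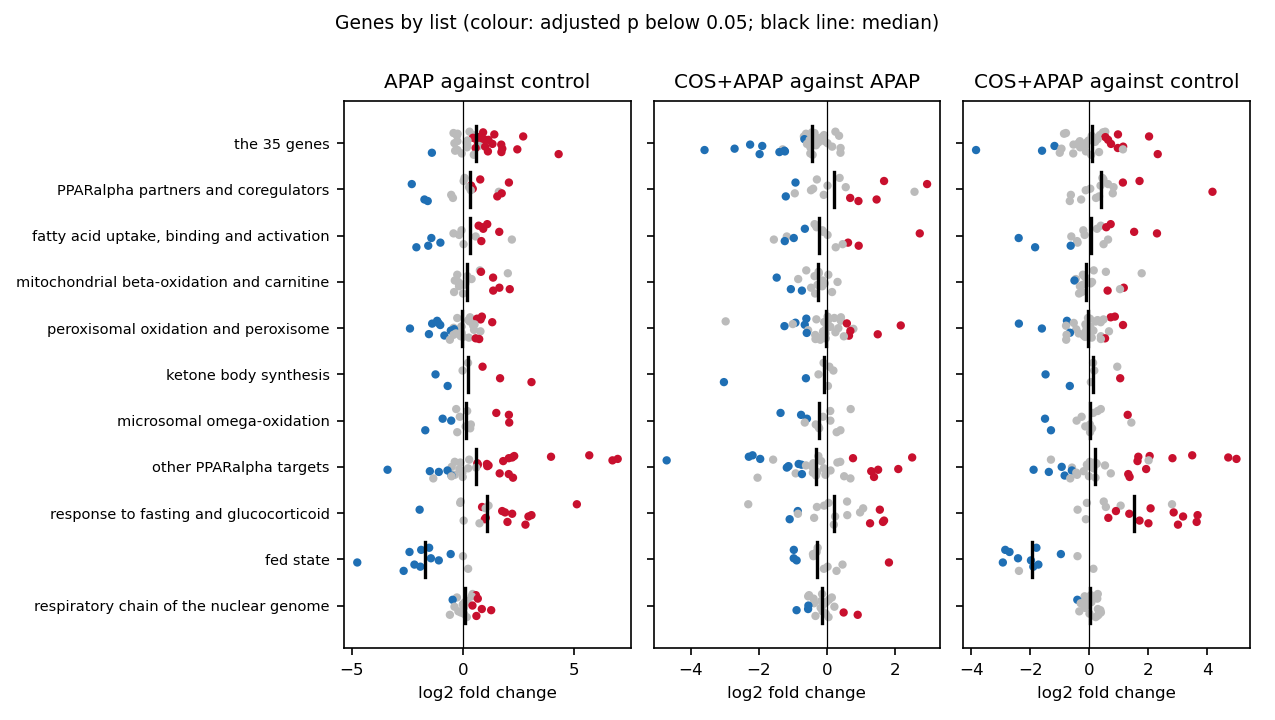
Log2 fold changes of the 35 genes and of the tested genes of 10 other lists in the 3 comparisons, with 1 point per gene, colour for genes that passed (red higher, blue lower) and a black line at the median. *Acot5* is left out of the comparisons with control, where it is listed at 0, and the 35 genes have medians of 0.57, -0.44 and 0.09 from left to right.

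Counts for markers of liver zones and of other cells stand beside the shares of all tested genes. These were 23.3% higher and 22.1% lower in APAP against control, and 11.2% and 11.1% in COS+APAP against APAP. For COS+APAP against control they were 10.7% and 10.3%. The macrophage counts in COS+APAP against APAP, 6.67% higher and 13.3% lower, were near these shares. Of 17 tested pericentral hepatocyte markers, 16 were lower in APAP than in control and 0 higher, and 15 were higher in COS+APAP than in APAP and 0 lower. Their summed level was 4822 and 3974 FPKM in the controls, 1313 and 1827 under APAP alone and 4309 and 3568 under COS+APAP, and none was at 0 in all libraries. Of 16 periportal markers, 8 were higher and 0 lower in APAP than in control, and 2 were higher and 5 lower in COS+APAP than in APAP, with sums of 3446 and 2838, 6573 and 6452, and 5009.6 and 5092 FPKM. For macrophage markers (15 tested) the counts were 5 higher and 0 lower in APAP against control and 1 and 2 in COS+APAP against APAP, with sums of 155 to 174, 191 to 230 and 168 to 174 FPKM. For sinusoidal endothelial markers (12 tested) they were 5 and 0, then 1 and 9, with sums of 49.9 to 56.8, 60.7 to 64.5 and 33.1 to 36.8. For stellate markers (7 tested) they were 3 and 0, then 0 and 5, with sums of 78.5 to 84.3, 89.6 to 97.1 and 33.8 to 55.9. Erythroid markers (5 tested) were 4 and 0, then 0 and 4, with sums of 269 to 298, 1075 to 1492 and 309 to 316. Against control, COS+APAP had 1 higher and 5 lower pericentral markers, 7 and 1 periportal, 2 and 0 macrophage, 1 and 5 endothelial, 0 and 4 stellate, and 0 and 0 erythroid. Of 9 adipocyte markers, 7 had a mean below 1 FPKM, *Lep* and *Ucp1* were at 0 in all libraries, and the sum was 2.52 to 12.0, with *Fabp4* among them. All 7 muscle markers were below 1 FPKM on average and 4 were at 0. RNA of the mitochondrial genome took 12.8% and 16.1% of counts in the controls, 8.28% and 7.37% under APAP alone and 11.8% and 10.8% under COS+APAP. The part of each of these in the results on the 35 genes was not tested.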

How the data were processed

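The members and the gene lists were chosen with earlier results of these data known. Poly(A) RNA of mouse liver was sequenced in 6 libraries. The submitters' processing notes name HISAT2 2.0 for alignment and StringTie 1.3.0 for assembly. A genome build was not given in the sources used here. Per the file headers, the authors deposited estimated counts and FPKM values for each gene in each library. The estimated counts were whole numbers and entered the test unchanged. Small values clustered at multiples of 4, so 1 fragment was taken as 4 counts. A further 6 columns of per-sample values matched no sample and were not used. Gene coordinates are the deposited ones, and promoter coordinates are those of RefSeq. Of the 55401 identifiers, 55141 occur in GENCODE M21 (GRCm38), 94.2% of them with identical coordinates.

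edgeR 4.0.16 (R 4.3.3) was fitted once over all 6 libraries and 3 groups with TMM scaling, leaving 3 residual degrees of freedom, on 10051 genes with a mean of at least 1 FPKM. Tests were two-sided, with Benjamini-Hochberg adjustment over these genes and calls at an adjusted p below 0.05. Standard errors equal the log2 fold change over the root of the F statistic. With 2 libraries against 2, an exact permutation test of a single gene cannot give a p below 0.33. The procedure was run on counts simulated from its own fitted dispersions, with known folds set in APAP alone. That run checked the size of recovered fold changes and is no evidence for the calls above. Where a symbol had several entries (134 such repeats), the one with the highest mean FPKM was used. All 35 members were named, and of each list the 2 largest rises and falls that passed in each comparison, with *Fgf21* and *Angptl4*. Some genes under this rule are not reported here. *Cyp4a31* and *Plin2* in APAP against control were added after their values were seen. *Cidec* in COS+APAP against APAP also stands outside the rule. The alternatives below were not examined for these differences. Alternatives were RLE scaling, library totals, DESeq2 1.42.0, limma 3.58.1 on log2(FPKM + 1) and log2(FPKM + 0.1), no filter, a filter of 5 FPKM, only the groups compared, leaving out each library, a replicate block, and counts divided by 4, the last added after seeing the data.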

Additional observations from a re-analysis of the deposited data

How the results depend on the processing

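Of 1607 refits of single members, 1439 kept the direction and the side of the threshold, 100 lost a call, 34 gained one and 34 changed sign. In APAP against control, 12 of the 18 rises passed in every alternative run (*Creb3l3*, *Cpt1a*, *Crat*, *Acadvl*, *Hadha*, *Hadhb*, *Etfdh*, *Eci2*, *Acot2*, *Cyp4a10*, *Cyp4a14* and *Pdk4*). The number lower in APAP was 4 with library totals, 2 with DESeq2, 3 and 2 with limma at log2(FPKM + 1) and + 0.1, and 2 with only those groups. In COS+APAP against APAP, DESeq2 gave 1 higher and 15 lower. The calls it added were *Cpt2* as higher and *Crat*, *Acadm*, *Hadhb*, *Etfdh*, *Decr2* and *Acot2* as lower. In COS+APAP against control, the number higher was 5 with library totals, 5 with no filter, and 4 and 5 with limma at + 1 and + 0.1, and the number lower was 5 with library totals and 5 with limma at + 1.

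With 1 library left out, the lone library of its group is assumed to vary like the others. The counts then ranged from 13 to 20 higher and 0 to 1 lower in APAP against control, from 2 to 8 lower and 0 to 0 higher in COS+APAP against APAP, and from 1 to 6 higher and 2 to 4 lower in COS+APAP against control. The median log2 fold changes ranged from 0.471 to 0.712, from -0.63 to -0.272 and from -0.023 to 0.227. *Acot3* was the single member lower than APAP in each such fit, and the filter of 5 FPKM removed it.

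In the alternatives that kept all 6 libraries, signs turned for uncalled differences near 0, all on the log2 scale. With library totals and limma at + 1 and + 0.1, COS+APAP minus APAP was -0.005, -0.007 and -0.007 for *Etfb*. COS+APAP minus control was -0.087, -0.071 and -0.072 for *Cpt2*, -0.026, -0.008 and -0.008 for *Acadl* and -0.105, -0.158 and -0.166 for *Vnn1*. In these settings the median of all genes was -0.155, -0.103 and -0.134 in APAP against control, where TMM gave -0.002. In COS+APAP against control it was -0.157, -0.107 and -0.135, where TMM gave 0.018. Library totals called 1869 genes higher and 2814 lower in APAP against control, where TMM gave 2342 and 2219, and 706 and 1644 in COS+APAP against control, where TMM gave 1073 and 1036.

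With 1 library left out, APAP minus control ranged from -0.056 to 0.565 for *Ppara*, -1.005 to 0.572 for *Cd36*, -0.653 to 0.073 for *Fabp1*, -0.466 to 0.019 for *Acot3* and -0.374 to 0.363 for *Bdh1*. COS+APAP minus APAP ranged from -0.079 to 0.602 for *Ppara*, -0.312 to 0.107 for *Slc25a20*, -0.266 to 0.108 for *Eci1*, -0.126 to 0.145 for *Etfb*, -0.028 to 0.312 for *Eci2* and -0.169 to 0.801 for *Aldh3a2*. COS+APAP minus control ranged from -1.37 to 0.206 for *Cd36*, -0.023 to 0.191 for *Cpt2*, -0.141 to 0.099 for *Acaa2*, -0.259 to 0.003 for *Acaa1a*, -0.283 to 0.045 for *Cyp4a10* and -0.495 to 0.472 for *Vnn1*. The cause of these turns was not tested.

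With a replicate block, APAP against control gave 17 higher and 1 lower with a median of 0.56, and *Acadl* lost its call. Over all tested genes, the deviations of same-numbered libraries of these groups from their group means had a correlation of 0.017. In both groups, 27 of the 35 genes were lower in replicate 3 than in replicate 1. Whether these libraries share more than a number was not tested. No paired analysis was possible for the comparisons with COS+APAP because those groups share only replicate number 3. With 2 libraries a group and 1 fragment standing for about 4 counts, values under 1 FPKM such as those of *Acot3* in COS+APAP rest on few fragments.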

Other observations

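Most tested genes of the fed liver fell, and most of the fasting and glucocorticoid response rose, in both APAP groups compared with control. Of 12 tested fed-state genes, 0 were higher and 10 lower in APAP than in control, with a median log2 fold change of -1.70, and 0 were higher and 9 lower in COS+APAP than in control, with a median of -1.94. *Thrsp*, a lipogenic regulator, was at 189 and 270 FPKM in the controls, 8.52 and 6.93 under APAP alone and 31.8 and 22.2 under COS+APAP (log2 fold change of APAP over control -4.75, edgeR adjusted p = 0.00102, and of COS+APAP over APAP 1.82, adjusted p = 0.0117). *Srebf1*, the master factor of lipogenesis, was at 27.7 and 29.0 FPKM in the controls, 7.24 and 6.80 under APAP alone and 3.45 and 3.60 under COS+APAP, and was lower in COS+APAP than in APAP (-0.97, adjusted p = 0.00756). The liver factor *Onecut1* was lower in APAP (-2.66, adjusted p = 0.031), and the elongase *Elovl6* was lower in COS+APAP than in APAP (-0.98, adjusted p = 0.0176). In COS+APAP against APAP, 1 fed-state gene was higher and 3 lower. The *Onecut1* call was lost without either control library or either COS+APAP library, and its value was -4.28 without APAP replicate 1 and -1.92 without APAP replicate 3, while the call of *Elovl6* was lost without either COS+APAP library or APAP replicate 1.

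Of 18 tested fasting and glucocorticoid genes, 11 were higher and 1 lower in APAP than in control (median 1.09), 4 higher and 2 lower in COS+APAP than in APAP (median 0.22), and 11 higher and 0 lower in COS+APAP than in control (median 1.54). *Igfbp1* was at 40.5 and 5.13 FPKM in the controls, 803 and 646 under APAP alone and 131 and 158 under COS+APAP, and rose with APAP (5.12, adjusted p = 0.011). Its controls lay far apart, and the log2 value was 7.29 without control replicate 1 and 4.29 without control replicate 3. The glucocorticoid target *Zbtb16* rose with APAP (3.08, adjusted p = 0.00167) and was above control in COS+APAP (3.68, adjusted p = 0.00336). *Tsc22d3*, another glucocorticoid target, fell with APAP (-1.95, adjusted p = 0.0121). *Ddit4* was higher in COS+APAP than in APAP (1.64, adjusted p = 0.0294), and *Foxo3* (-1.09, adjusted p = 0.0271) and the clock gene *Per1* (-0.86, adjusted p = 0.0259) were lower. Above control in COS+APAP, *Ddit4* (3.65, adjusted p = 0.00569) stood next to *Zbtb16*. The calls of *Ddit4*, *Foxo3* and *Per1* against APAP were lost without APAP replicate 1 or COS+APAP replicate 2, among others, and that of *Tsc22d3* without APAP replicate 1. Without control replicate 1 the *Tsc22d3* value was -1.33.

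Of 21 tested nuclear genes of the respiratory chain and the citric acid cycle, 6 were higher and 1 lower in APAP than in control (median 0.09). The 28.6% higher was near the 23.3% of all tested genes, and the 4.76% lower stood beside 22.1%. In COS+APAP, 2 were higher and 3 lower than in APAP (median -0.14). These counts, 9.52% and 14.3%, were near the 11.2% and 11.1% of all tested genes. Against control, 0 were higher and 1 lower in COS+APAP (median 0.04). The 4.76% lower stood beside 10.3% of all tested genes, of which 10.7% were higher. The ATP synthase genes *Atp5b* (1.27, adjusted p = 0.00234) and *Atp5a1* (0.85, adjusted p = 0.00634) rose with APAP, and both were lower in COS+APAP than in APAP (-0.89, adjusted p = 0.0141, and -0.55, adjusted p = 0.041). *Sdhb*, of succinate dehydrogenase, was lower than control in APAP (-0.46, adjusted p = 0.0156) and in COS+APAP (-0.40, adjusted p = 0.0439). The 2 genes higher in COS+APAP than in APAP, *Idh3a* (0.90, adjusted p = 0.0329) and *Cs* (0.49, adjusted p = 0.0322), encode enzymes of the citric acid cycle and not of the chain. The calls of *Atp5b*, *Atp5a1*, *Idh3a* and *Cs* against APAP were lost without either COS+APAP library or APAP replicate 1, and those of *Sdhb* without control replicate 1 or APAP replicate 1, among others.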
